A study of Rattus norvegicus with 12 samples.

Results

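The genes described here carry out mitosis: the cyclins and kinases that start it, the spindle and kinetochore proteins that move the chromosomes, and the proteins that condense, separate and partition them. They were chosen by name from a list of 50 symbols, and 49 were found among the 22384 lines of the expression table that carry a symbol. Ccnb2 was not analysed here. The study profiled RNA from rat cells labelled HPCs, hepatic progenitor cells of the embryonic liver, all taken at gestation day 13.5. There were 6 groups of 2 libraries each. The untreated groups were wild type (WT), Tnfrsf1α-/- and Tnfrsf1β-/-, the last 2 labelled as lacking the first or the second receptor for tumour necrosis factor. The other 3 groups were the same genotypes after 1 hour with TNFα, an inflammatory cytokine. How the receptor genes were disrupted, and whether cells came from single or pooled embryos, was not given in the sources used here.

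Cells enter mitosis when cyclin-dependent kinase 1, bound to cyclin A or cyclin B, phosphorylates its targets. Chromosomes then condense and attach to spindle microtubules through their kinetochores, and a checkpoint holds the cell back until each is attached. The anaphase-promoting complex next marks cyclin B and securin for destruction, separase opens the cohesin rings, and the cell divides. Most of these genes are transcribed late in the cell cycle, and in many of them the factors FOXM1, B-MYB and NF-Y act at the promoter. In the fetal liver, progenitors that will form hepatocytes and bile ducts are dividing, and in the adult organ regenerating hepatocytes switch such genes on.

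Levels are log2(FPKM + 1), where FPKM corrects a gene's reads for its length and for the size of the library. A difference of 1 on this scale is a doubling for well expressed genes and understates the change of genes near 0. All 49 genes reached the mean of 1 FPKM required for testing and were tested with the other genes, 11860 in all, by limma with Benjamini-Hochberg adjustment over all of them. A gene is said to be called, to have risen or to have fallen where its adjusted p was under 0.05. The labels do not say whether the 2 libraries of a group stem from different cultures or embryos, and the p-values therefore reflect a spread that may be technical. In bulk RNA, more cells in mitosis and more of these transcripts per cell cannot be told apart.

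Several features of the libraries stand beside every result below. In untreated libraries labelled Tnfrsf1α-/-, Tnfrsf1a stood at 5.94 and 6.13, above the 5.45 and 5.15 of untreated WT, so the label was not borne out by this gene's level, and these libraries are named by their label throughout. Tnfrsf1b had a value of 0 in the 4 Tnfrsf1β-/- libraries but equally in untreated WT, so it does not separate that label from untreated WT. It was at 2.58 and 2.43 in treated WT, and at 0 and 4.09 in the treated libraries labelled Tnfrsf1α-/-. Of 10 progenitor and bile duct markers, Afp, Dlk1 and Epcam were listed at 0 in every group but treated WT. Prom1 and Spp1 were at 0 in treated and untreated WT. In treated WT Afp was at 5.78 and 5.37, Epcam at 3.32 and 3.05, and Dlk1 at 0 and 0.19. Krt18 was at 9.64 and 9.84 there, Cd24 at 6.17 and 6.05 and Krt19 at 4.78 and 4.84. Elsewhere these last genes reached at most 0.34, 0.18 and 0.46. The 10 markers summed to 2519.1 to 2695 FPKM in treated WT and 172.2 to 889.5 in the other libraries. Krt8 was at 8.57 and 8.61 in untreated WT and 7.44 to 7.95 in the untreated knockouts, and Sox9 at 5.21 and 5.78 and at 0.02 to 0.31. With TNFα, Sox9 was at 9.15 and 9.19 in WT, 9.67 and 9.39 under the Tnfrsf1α-/- label and 6.30 and 5.69 in Tnfrsf1β-/-. Krt8 was then at 9.96 and 10.05, at 6.26 and 0.62, and at 8.62 and 8.02. The untreated knockout libraries summed to 447554 to 472935 FPKM each, and the other 8 to 1071530 to 2085916. In treated WT, the summed FPKM of 10 hepatocyte markers was 4799 to 4968.6, against 9 to 26.6 in all other libraries. The median level of 9 mesenchymal markers there was 0.28 to 0.85, against 6.14 to 8.28. Their summed FPKM in treated WT, 1951 to 2882.7, overlapped that of treated Tnfrsf1β-/-, 2538.2 to 3779.4. Of 7 mesenchymal markers tested, 6 were lower with TNFα in WT and 1 was higher, Tagln, at 10.73 and 11.37 in treated WT. Col1a1 was at 7.98 and 7.82 in treated WT. The part of these differences in the results on mitotic genes was not tested.

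The spread of the 49 genes within a library differed between groups. In the 4 untreated knockout libraries every mitotic gene lay between 2.41 and 6.96, with a standard deviation over the genes of 0.86 to 0.90 and none above a level of 8. The 2 treated WT libraries covered 0.74 to 13.98, with standard deviations of 3.74 and 3.78 and 21 genes above 8. Treated libraries labelled Tnfrsf1α-/- came next, with standard deviations of 2.64 and 2.67 and 19 genes above 8. Untreated WT libraries had 7 genes above 8, and treated Tnfrsf1β-/- libraries 6 and 5. Over all tested genes the standard deviation was also smallest in the untreated knockout libraries, at 1.90 to 1.93, against 2.28 to 2.65 elsewhere. The 49 genes together took 0.345 to 0.473% of total FPKM in the untreated knockouts and 2.69 to 3.04% in treated WT.

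**Figure D1:**
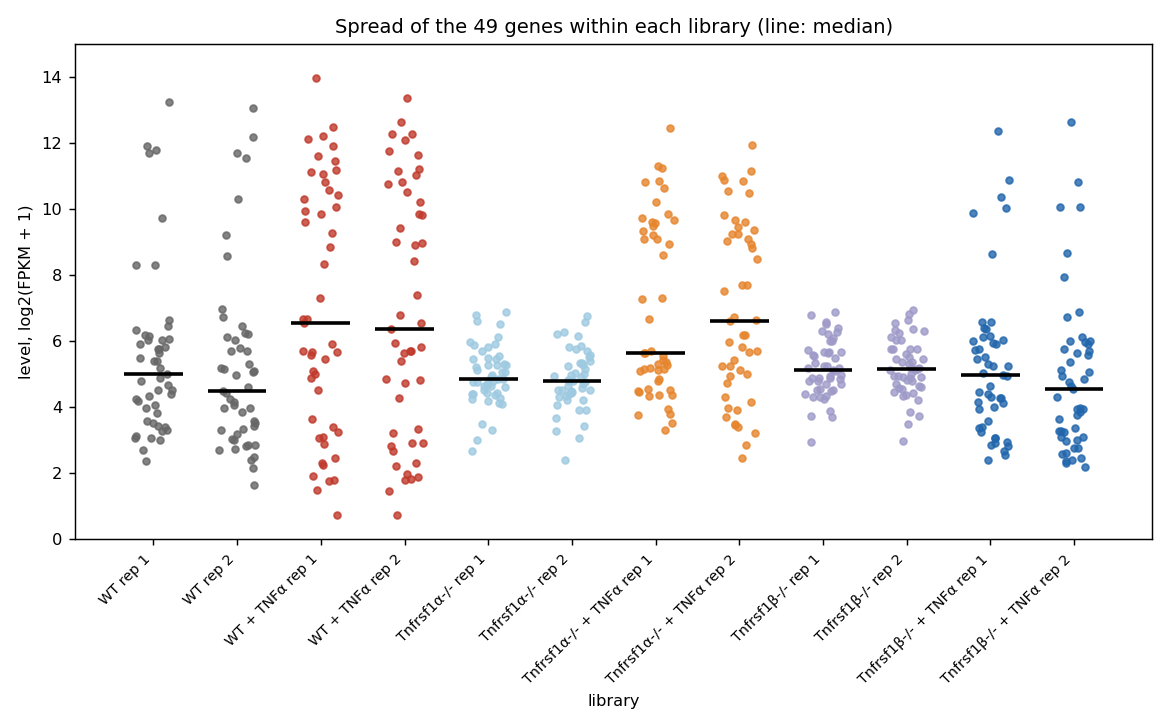
Level of each of the 49 mitotic genes, in log2(FPKM + 1), within each of the 12 libraries. Each point is a gene and the black line is the median of the library. The 4 untreated knockout libraries form narrow columns between 2.41 and 6.96, and the 2 treated WT libraries reach from 0.74 to 13.98.

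With TNFα in WT the rises among the mitotic genes reached further than the falls. Of the 49, 34 were called, or 69.4%, against 47.2% of all tested genes. Those that rose numbered 21 (42.9%, against 31.9% of all genes), and 13 fell (26.5%, against 15.3%). The median difference was 0.20, beside 0.32 over all genes. The 2 groups of libraries did not overlap for 42 of the 49 genes (85.7%, against 79.9% of all genes). The division between directions depended on scaling: with median-ratio scaling 20 rose and 19 fell, and with quantile normalization 18 rose and 20 fell. In 22 alternative analyses 18 of the 21 rises and 5 of the 13 falls were kept in every one.

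Many of the rises were steep. A difference above 4 was found in 14 of the 49 (28.6%, against 4.68% of all genes and 24% of 25 DNA replication genes). Among 43 mitotic genes outside the 49 the share was lower, at 9.3%. The 14 were Ccna2, Ccnb1, Cdc25c, Plk1, Aurkb, Cdca8, Cenpa, Ndc80, Kif2c, Anln, Cdc20, Ncapd2, Ncaph and Foxm1, and all 14 rises were kept in every alternative analysis. Just inside that limit was Anln at 4.05, and just outside it Spc24 at 3.70. With median-ratio scaling 13 of the 14 passed 4, all but Anln, and with quantile normalization 12, all but Anln and Cdca8. The largest rises were in Ncapd2, by 8.01 (SE 0.34, adjusted p = 1.36e-07), Kif2c, by 7.03 (SE 0.29, adjusted p = 1.16e-07), and Foxm1, by 6.60 (SE 0.29, adjusted p = 1.63e-07). The largest falls were smaller: Smc4 at -2.35 (SE 0.58, adjusted p = 0.0108), Mki67 at -1.60 (SE 0.35, adjusted p = 0.00623) and Cenpf at -1.52 (SE 0.28, adjusted p = 0.00279). Without WT replicate 1, or without replicate 1 or 2 of treated WT, Smc4 had an adjusted p of 0.0516, 0.0653 and 0.0631, and Mki67 had one of 0.0521 without replicate 2 of treated WT. Cenpf kept its fall in every alternative analysis.

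TNFα in the libraries labelled Tnfrsf1α-/- went with rises almost without falls. Called genes numbered 23 (46.9%, against 17.3% of all genes), with 22 higher (44.9%, against 9.81%) and 1 lower (2.04%, against 7.5%). The median difference of the 49 was 0.77, beside -0.02 over all genes. Libraries did not overlap for 36 genes (73.5%, against 62.2%). With quantile normalization the split was 21 higher and 10 lower. A difference above 4 was found in 17 genes (34.7%, against 3.62% of all genes and 28% of the replication genes): 11 of the 14 that passed 4 in WT, and Cenpe, Spc24, Ect2, Ube2c, Espl1 and Top2a. Among 43 mitotic genes outside the 49 the share was 18.6%. With quantile normalization 12 of the 49 passed 4. Ncapd2 rose by 6.61 (SE 0.34, adjusted p = 1.04e-06), Foxm1 by 6.22 (SE 0.29, adjusted p = 4.83e-07) and Espl1 by 6.16 (SE 0.18, adjusted p = 2.93e-08). The 1 lower gene was Cenpf, at -1.76 (adjusted p = 0.00362), whose adjusted p was 0.203 when only the 2 groups compared were fitted. Without replicate 1 of the treated libraries labelled Tnfrsf1α-/-, 38 genes were called, 30 higher and 8 lower, and the share of all genes called rose to 59%. Between these 2 treated libraries 11 genes were more than 1 apart, against at most 4 between those of any other group, with Birc5 at 5.29 and 7.69. The 2 libraries also differed in cell type markers, with Krt8 at 6.26 and 0.62, Acta2 at 8.55 and 0.26, and Col3a1 at 7.23 and 3.26. Spp1 was at 0 and 6.12 and Cd68 at 0.66 and 4.09, while Vim was similar at 10.63 and 10.92. The part of this difference in the results on mitotic genes was not tested.

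TNFα in the Tnfrsf1β-/- libraries went mostly with lower levels, as it did over all genes. Of the 49, 33 were called (67.3%, against 60.5% of all genes), with 10 higher (20.4%, against 17.6%) and 23 lower (46.9%, against 42.9%), shares near those of all genes. The median was -0.80, beside -0.66 over all genes, and libraries did not overlap for 46 genes (93.9%, against 87.5%). Median-ratio scaling moved the median of all genes to -0.03 and turned the split to 18 higher and 14 lower. In WT it moved that median from 0.32 to -0.04. Ube2c and Espl1 exceeded 4, joined by Kif20a and Top2a with median-ratio scaling (4.08%, against 1.41% of all genes, as deposited). Among 43 mitotic genes outside the 49 the share was 9.3%. Ube2c rose by 7.94 (SE 0.20, adjusted p = 4.38e-08) and Espl1 by 6.97 (SE 0.18, adjusted p = 4.16e-08), followed by Kif20a at 3.75 (SE 0.18, adjusted p = 1.73e-06). The largest falls were Cenpf at -2.43 (SE 0.28, adjusted p = 0.000331), Smc4 at -2.35 (SE 0.58, adjusted p = 0.00805) and Bub1 at -2.20 (SE 0.36, adjusted p = 0.00121). Smc4 missed the threshold without replicate 2 of the treated group, at 0.0551. Of the 14 genes that rose by more than 4 in WT, limma called 0 higher here, also at an unadjusted p under 0.05, and 7 lower. With median-ratio scaling 5 of the 14 were called higher, Plk1, Aurkb, Cdca8, Cenpa and Cdc20, by at most 1.36, and 1 lower. With quantile normalization 2 were called higher and 9 lower.

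**Figure D2:**
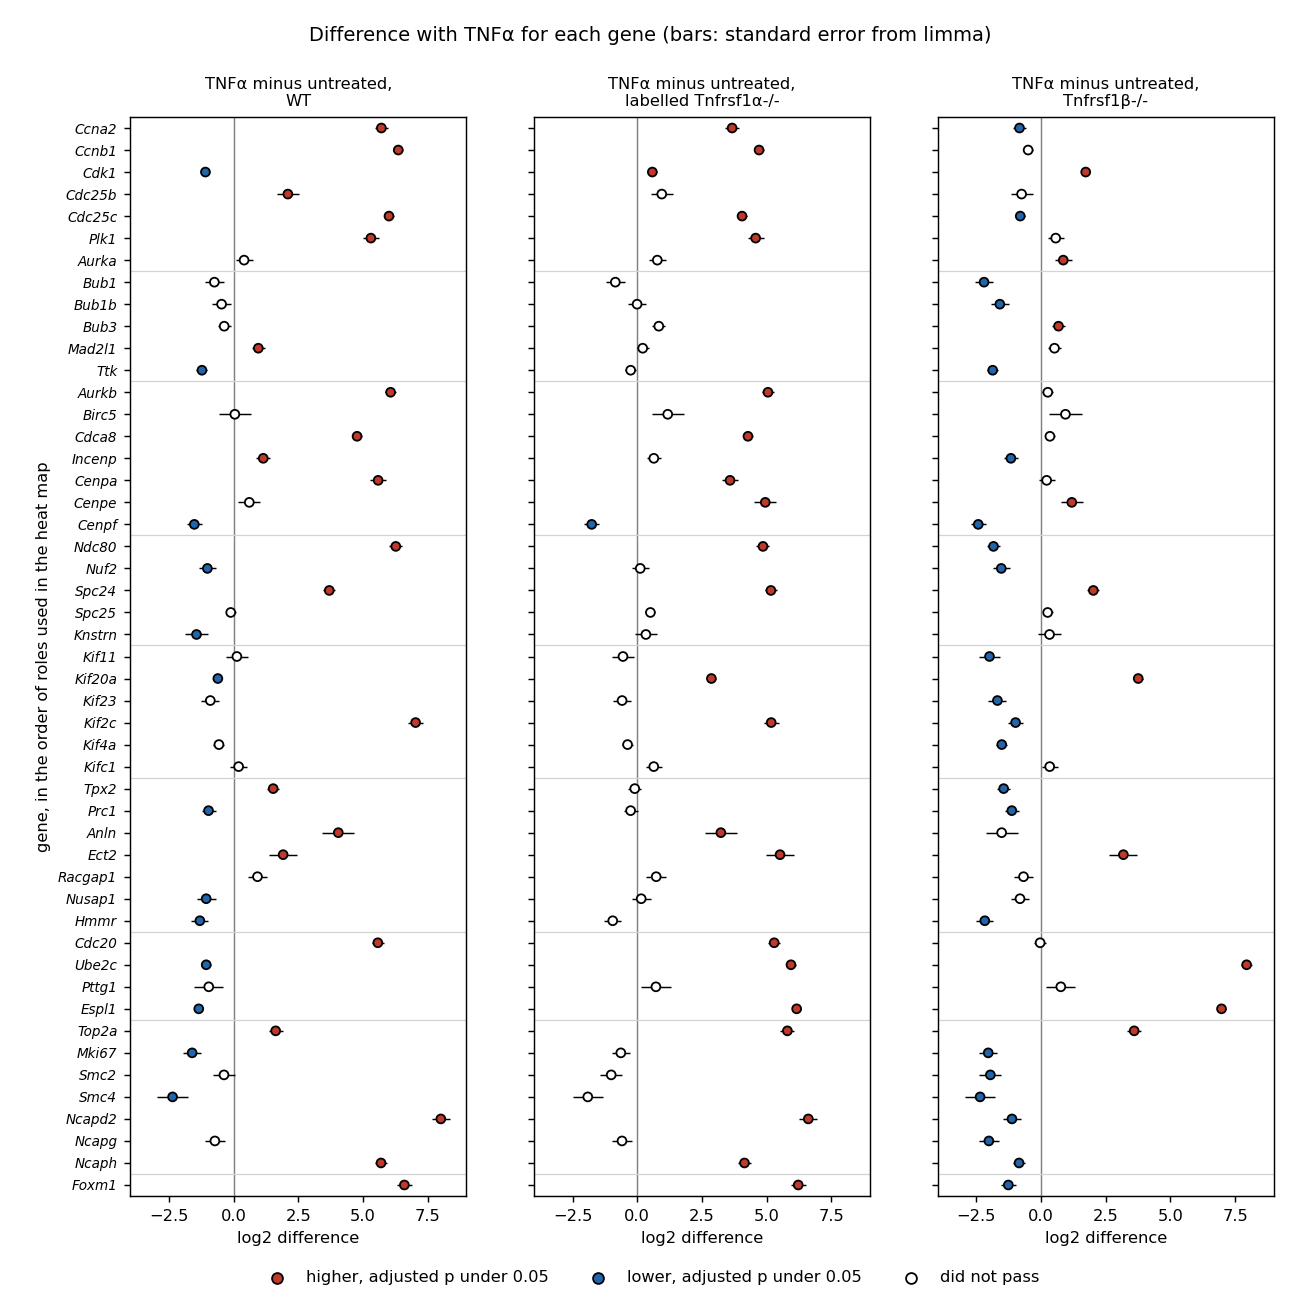
Difference with TNFα, treated minus untreated in log2 units, for each of the 49 genes in the 3 genotypes. Points are differences between means of 2 libraries, bars are limma standard errors, and colour gives the call at an adjusted p under 0.05. In WT and in the libraries labelled Tnfrsf1α-/-, 14 and 17 points lie beyond 4, while in Tnfrsf1β-/- Ube2c and Espl1 do, with Kif20a and Top2a added under median-ratio scaling.

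The order of the libraries gave 3 patterns, which were defined after the values were seen. In the first, all 4 treated WT and Tnfrsf1α-/- libraries lay more than 2 above every other library, as in 14 mitotic genes (28.6%, against 2.34% of all genes). These were the genes named above with Spc24 in place of Anln. In the second, all 4 untreated knockout libraries lay more than 2 below every other library, as in Kif20a, Ect2, Ube2c, Espl1 and Top2a (10.2%, against 1.46%). In the third, both treated WT libraries were the lowest of all 12, as in Bub1, Ttk, Cenpf, Knstrn, Kif23, Kif4a, Prc1, Nusap1, Hmmr, Mki67, Smc4 and Ncapg (24.5%, against 15.4%).

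**Figure D3:**
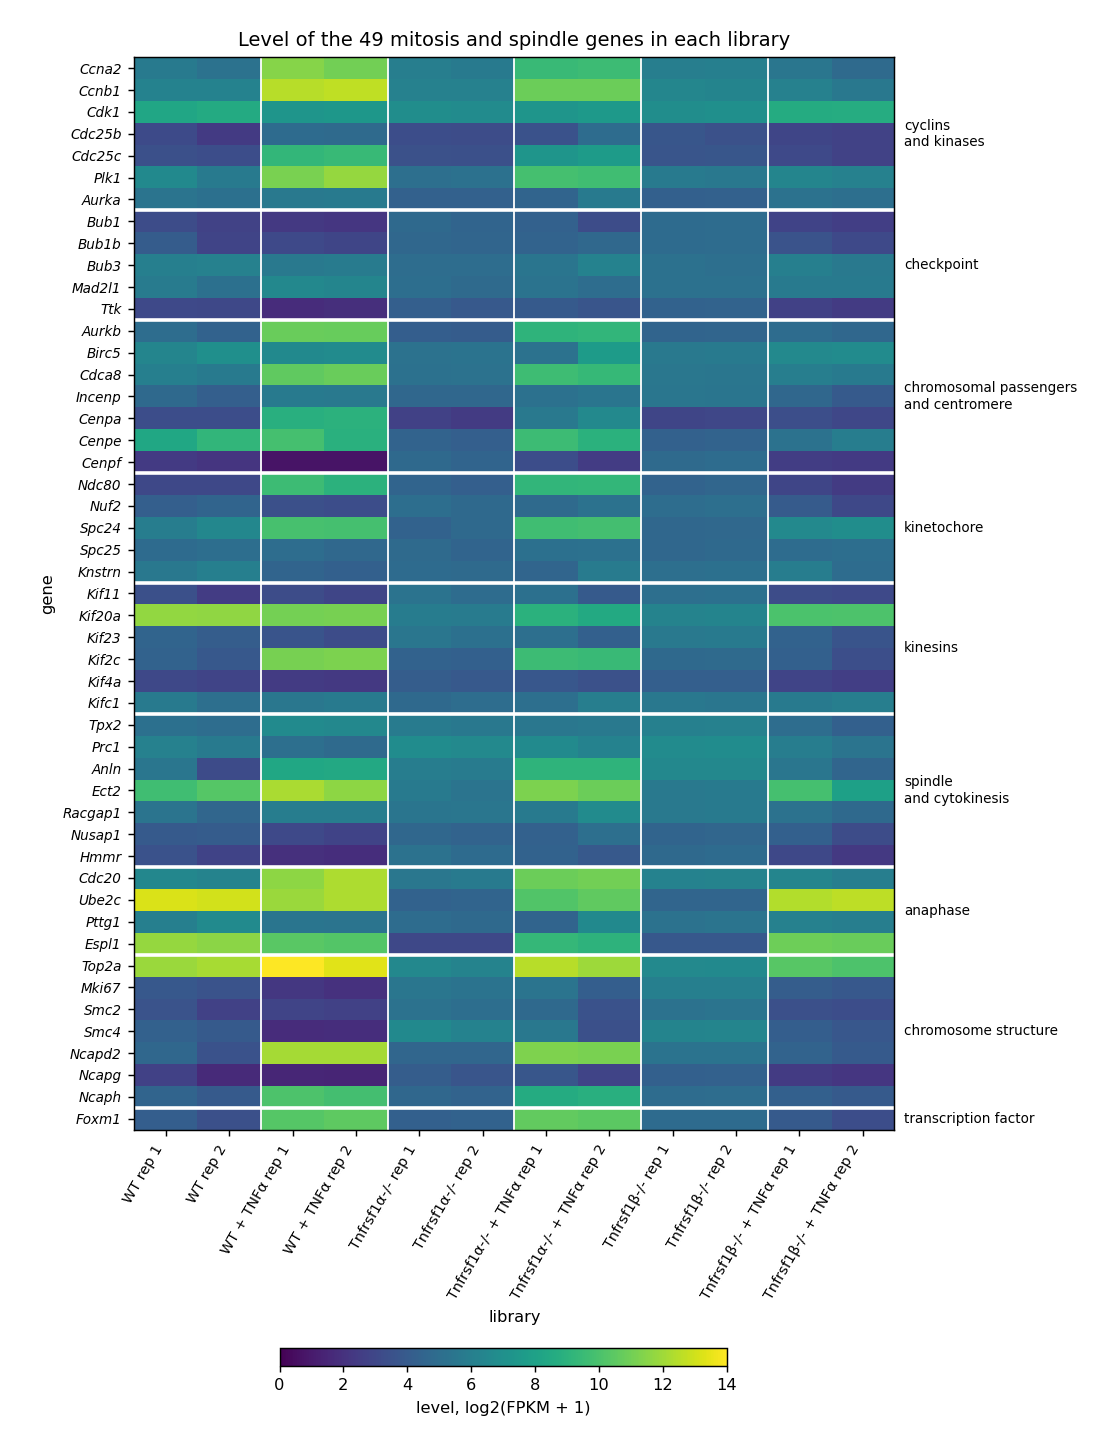
Level of each gene in each library, in log2(FPKM + 1), with genes in rows grouped by role and libraries in columns grouped by label. Rows such as Ccnb1, Plk1, Kif2c and Ncapd2 are bright in the 4 treated WT and Tnfrsf1α-/- libraries, and Ube2c, Espl1, Kif20a and Top2a are dark in the 4 untreated knockout libraries.

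Among cyclins and kinases, cyclin B1 (Ccnb1), the partner that carries Cdk1 into mitosis, had the highest mean and the widest range. It was at 6.20 and 6.21 in WT and at 12.49 and 12.65 in treated WT. In libraries with the Tnfrsf1α-/- label it was at 6.13 and 6.17 untreated and 10.86 and 10.84 treated, and in Tnfrsf1β-/- at 6.40 and 6.31 untreated and 6.14 and 5.58 treated. The 4 treated WT and Tnfrsf1α-/- libraries thus stood more than 4 above all others. Cyclin A2 (Ccna2), which acts from DNA replication to early mitosis, rose by 5.71 in WT and 3.66 in the libraries labelled Tnfrsf1α-/-. Cdc25c, the phosphatase that activates Cdk1, rose by 6.01 and 4.05, and Plk1, the polo-like kinase of mitotic entry and spindle assembly, by 5.31 and 4.57.

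Cdk1 itself did not follow its cyclins. Its levels were 8.31 and 8.58 in WT and 7.30 and 7.41 in treated WT, where it fell by 1.09. They were 6.89 and 6.77 in untreated and 7.29 and 7.52 in treated libraries labelled Tnfrsf1α-/-. In Tnfrsf1β-/- they went from 6.89 and 6.96 to 8.63 and 8.67, a rise of 1.73. Cdk1 was thus above both cyclins in WT and below both in treated WT. Cdc25b, a related phosphatase, rose in WT by 2.1, and Aurka, the centrosomal aurora kinase, differed there by 0.41 without being called.

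The spindle checkpoint genes had no steep rise. Bub3, which brings the Bub kinases to kinetochores, had the highest mean, with 6.07 and 6.14 in WT, 5.66 and 5.82 in treated WT and 4.98 in both untreated libraries labelled Tnfrsf1α-/-. Bub1, a kinase that recruits other checkpoint proteins, was at 3.27 and 2.74 in WT and 2.32 and 2.21 in treated WT, but at 4.88 and 4.96 in untreated Tnfrsf1β-/- and 2.83 and 2.60 after treatment. Its fall with TNFα in Tnfrsf1β-/- was kept in every alternative analysis, as were those of Bub1b, at -1.59, and of Ttk, the kinase also called MPS1, at -1.87. Ttk also fell in WT, by 1.22, from 3.08 and 3.02 to 1.76 and 1.90. Mad2l1, which inhibits Cdc20, went the other way in WT, with 5.83 and 5.18 untreated and 6.56 and 6.37 treated, but its call was lost in 4 of 22 alternative analyses.

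The chromosomal passenger complex joins the kinase Aurkb to Incenp, Birc5 (survivin) and Cdca8 (borealin), and corrects faulty attachments. Aurkb was at 5.02 and 4.42 in WT and 10.81 and 10.77 in treated WT, and at 4.18 and 4.06 against 9.10 and 9.24 in the libraries labelled Tnfrsf1α-/-. In Tnfrsf1β-/- it stayed between 4.51 and 4.94 in all 4 libraries. Cdca8 rose by 4.77 in WT and 4.28 in the libraries labelled Tnfrsf1α-/-. Birc5 differed by 0.05 in WT and was not called with TNFα in any genotype, and Incenp was higher by 1.15 in WT, a call lost with quantile normalization. The 4 subunits spanned 1.18 to 1.19 between their group means in the untreated knockouts and 5.12 in treated WT.

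At the centromere, Cenpa, Cenpe and Cenpf each had a different course. Cenpa, the histone variant that marks centromeres, was at 3.31 and 3.33 in WT and 8.84 and 8.98 in treated WT. In libraries with the Tnfrsf1α-/- label it was at 2.68 and 2.41 untreated and 5.65 and 6.61 treated, and in Tnfrsf1β-/- all 4 libraries lay between 2.94 and 3.37. Cenpe, a kinesin that carries chromosomes to the spindle equator, was already at 8.32 and 9.22 in WT and at 9.86 and 8.90 in treated WT. It was at 4.43 and 4.23 in untreated libraries labelled Tnfrsf1α-/- and 9.60 and 8.95 after treatment. In Tnfrsf1β-/- it was at 4.33 and 4.46 untreated and 5.26 and 5.91 treated. Cenpf, a kinetochore and nuclear matrix protein, was lowest in treated WT, at 0.75 and 0.74, against 2.36 and 2.17 in WT 4.78 and 4.53 in untreated libraries labelled Tnfrsf1α-/- and 4.86 and 4.93 in untreated Tnfrsf1β-/-. It was lower with TNFα in all 3 genotypes.

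The NDC80 complex links the kinetochore to microtubules as a rod of 4 proteins. With TNFα in WT and under the Tnfrsf1α-/- label, Ndc80 and Spc24 rose while Nuf2 and Spc25 did not. In Tnfrsf1β-/- Ndc80 and Nuf2 both fell, with differences of -1.84 and -1.54, the call of Nuf2 being lost with median-ratio scaling. Ndc80 was at 3.06 and 3.03 in WT, 9.62 and 9.0 in treated WT, 4.53 and 4.23 in untreated and 9.23 and 9.25 in treated libraries labelled Tnfrsf1α-/-, and 4.48 and 4.60 against 2.94 and 2.46 in Tnfrsf1β-/-. Nuf2, which forms a dimer with Ndc80, was at 4.24 and 4.50 in WT and 3.40 and 3.33 in treated WT, a difference of -1.01 whose call was lost in 7 of 22 alternative analyses. Spc24 had the highest mean, with 5.92 and 6.47 in WT and 9.94 and 9.85 in treated WT, and it rose with TNFα in all 3 genotypes, by 3.70, 5.16 and 2.02. Spc25, the partner of Spc24, stayed between 4.53 and 5.24 in all 12 libraries and was not called with TNFα in any genotype. Knstrn, a spindle and kinetochore protein, differed by -1.43 in WT, a call lost in 4 of 22 alternative analyses.

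Condensin I folds mitotic chromosomes, and in treated WT its 5 subunits showed the widest separation of the assemblies examined. They also showed the widest in treated libraries labelled Tnfrsf1α-/- and in both untreated knockout groups. In untreated WT and in treated Tnfrsf1β-/- they showed the narrowest. Ncapd2, a regulatory subunit, was at 4.68 and 3.51 in WT and 12.11 and 12.10 in treated WT. It was at 4.62 and 4.63 in untreated and 11.30 and 11.16 in treated libraries labelled Tnfrsf1α-/-, and at 5.34 and 5.32 against 4.47 and 3.94 in Tnfrsf1β-/-. Ncaph, the subunit that closes the ring, rose by 5.70 in WT and 4.14 in the libraries labelled Tnfrsf1α-/-. The ATPase subunits did not: Smc4 was at 4.34 and 3.98 in WT and 1.80 and 1.81 in treated WT, and Smc2 differed by -0.37 without being called. Ncapg, another regulatory subunit, was at 2.72 and 1.66 in WT and 1.49 and 1.45 in treated WT and was not called. The group means of the 5 subunits spanned 2.06 in WT and 10.63 in treated WT, 2.52 untreated and 7.92 treated under the Tnfrsf1α-/- label, and 2.0 untreated and 1.90 treated in Tnfrsf1β-/-.

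**Figure D4:**
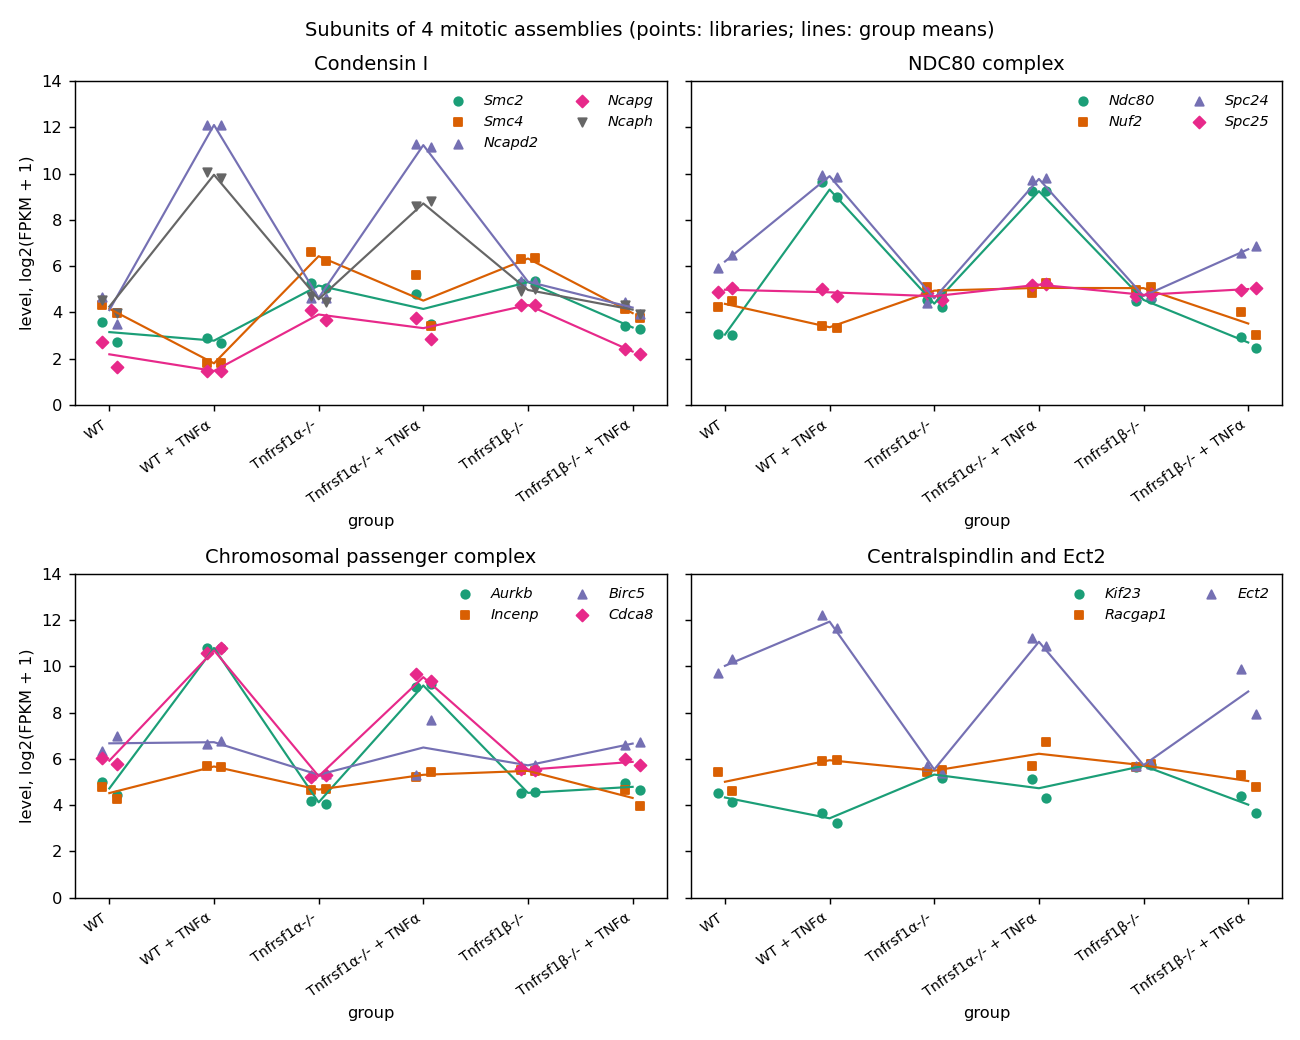
Levels of the subunits of condensin I, the NDC80 complex, the chromosomal passenger complex and centralspindlin with Ect2, in log2(FPKM + 1), by group. Points are libraries and lines join group means. Ncapd2 and Ncaph part from Smc2, Smc4 and Ncapg in the treated WT and Tnfrsf1α-/- groups, and Ndc80 and Spc24 part from Nuf2 and Spc25. In both untreated knockout groups the subunits of the other 3 assemblies lie closer together than in untreated WT. Those of condensin I span 2.06 in untreated WT, 2.52 under the untreated Tnfrsf1α-/- label and 2.0 in untreated Tnfrsf1β-/-.

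Promoters of 2 pairs, Ndc80 with Nuf2 and Ncapd2 with Ncapg, are shown although their products act in the same complex. They were taken because the partners moved differently with TNFα in WT and under the Tnfrsf1α-/- label. The sequences are RefSeq windows on the GRCr8 assembly, written along the gene from 250 bases before its start to 50 after. Of the 50 listed genes 43 matched the RefSeq table, and 42 with a single window were searched for CCAAT, the box bound by NF-Y, and TTTGAA, the core of the cell cycle element called CHR. Both strands were read (ATTGG and TTCAAA on the other), and matches that shared a letter were each counted. Capitals mark the matches.
Ndc80, chr9:118887480-118887779, minus strand: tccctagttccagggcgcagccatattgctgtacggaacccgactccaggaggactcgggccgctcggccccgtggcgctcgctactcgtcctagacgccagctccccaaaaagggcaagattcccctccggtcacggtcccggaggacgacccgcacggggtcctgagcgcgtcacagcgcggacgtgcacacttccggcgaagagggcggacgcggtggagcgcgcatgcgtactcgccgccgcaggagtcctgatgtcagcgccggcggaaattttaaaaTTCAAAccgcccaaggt
Nuf2, chr13:84255549-84255848, minus strand: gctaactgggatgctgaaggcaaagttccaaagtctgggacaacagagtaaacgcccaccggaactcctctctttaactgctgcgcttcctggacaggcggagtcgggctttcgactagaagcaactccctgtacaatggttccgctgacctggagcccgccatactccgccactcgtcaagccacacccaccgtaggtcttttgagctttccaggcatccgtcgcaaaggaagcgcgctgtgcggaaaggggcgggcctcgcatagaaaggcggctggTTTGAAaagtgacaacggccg
Ncapd2, chr4:159677889-159678188, minus strand: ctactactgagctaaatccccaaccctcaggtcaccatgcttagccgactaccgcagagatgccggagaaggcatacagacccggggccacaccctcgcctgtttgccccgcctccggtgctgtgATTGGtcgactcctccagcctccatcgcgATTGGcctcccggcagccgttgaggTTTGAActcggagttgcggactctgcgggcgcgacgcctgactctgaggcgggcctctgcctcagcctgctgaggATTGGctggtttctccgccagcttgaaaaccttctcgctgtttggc
Ncapg, chr14:69645396-69645695, minus strand: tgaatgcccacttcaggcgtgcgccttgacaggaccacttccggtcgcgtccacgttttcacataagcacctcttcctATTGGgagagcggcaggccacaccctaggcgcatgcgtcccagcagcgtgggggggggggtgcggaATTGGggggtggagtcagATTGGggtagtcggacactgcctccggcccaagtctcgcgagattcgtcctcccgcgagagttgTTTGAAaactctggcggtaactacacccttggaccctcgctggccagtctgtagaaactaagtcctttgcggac

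Each pair held the same number of matches. Ndc80 and Nuf2 had no CCAAT and 1 TTTGAA each, beginning 34 and 30 bases after the start, on opposite strands. Ncapd2 and Ncapg had 3 CCAAT and 1 TTTGAA each. Among all 42 mitotic promoters, CCAAT was in 78.6% and TTTGAA in 76.2%, and 61.9% held both, against 37.5%, 18.3% and 7.4% of 33469 windows of the same length. At least 2 CCAAT were in 57.1% of mitotic promoters and 11.2% of all windows. The 10 promoters with a window whose genes rose by more than 4 in WT held both motifs in 60% of cases, and the other 31 in the table in 61.3%. A match describes letters in the window and does not show that a factor bound there.

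Among kinesins, Kif20a, which acts in the midzone and in cytokinesis, had the highest mean, and Kif2c, a microtubule-depolymerizing kinesin at centromeres, the widest range. Kif20a was at 11.71 and 11.70 in WT and 11.05 and 11.14 in treated WT, but at 5.88 and 5.85 in untreated libraries labelled Tnfrsf1α-/- and 6.27 and 6.33 in untreated Tnfrsf1β-/-. With TNFα it was at 8.95 and 8.50 and at 10.03 and 10.07 in these genotypes. Kif2c was at 4.41 and 3.86 in WT and 11.11 and 11.22 in treated WT, at 4.39 and 4.32 against 9.59 and 9.47 in the libraries labelled Tnfrsf1α-/-, and at 4.81 and 4.83 against 4.28 and 3.38 in Tnfrsf1β-/-. Kif2c therefore stood apart in the same 4 libraries as Ncapd2, and Kif20a was low in the untreated knockouts. Kif11, Kif23 and Kif4a, which slide or bundle spindle microtubules or bind chromosome arms, were not called in WT and fell in Tnfrsf1β-/- by 1.99, 1.69 and 1.52. Kifc1, a kinesin that moves toward microtubule minus ends, was not called with TNFα in any genotype.

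Cytokinesis genes included Ect2, which activates RhoA at the division plane, and Anln (anillin), which scaffolds the contractile ring. Ect2 was at 9.72 and 10.31 in WT and 12.22 and 11.64 in treated WT. It was at 5.69 and 5.40 against 11.24 and 10.88 in the libraries labelled Tnfrsf1α-/-, and at 5.68 and 5.77 against 9.88 and 7.93 in Tnfrsf1β-/-. The untreated knockout libraries were the 4 lowest. Anln was at 5.49 and 3.20 in WT, the largest gap between WT replicates, and at 8.34 and 8.44 in treated WT, with 9.10 and 9.11 in treated libraries labelled Tnfrsf1α-/-. Kif23 and Racgap1 form centralspindlin, which recruits Ect2, and their group means lay within 0.23 of Ect2 in the untreated knockouts but up to 8.50 from it in treated WT. Tpx2, which activates Aurka on the spindle, rose by 1.53 in WT and fell by 1.45 in Tnfrsf1β-/-. Hmmr, a microtubule and hyaluronan binding protein, was at 3.53 and 2.83 in WT, 1.92 and 1.83 in treated WT, 5.29 and 4.91 in untreated libraries labelled Tnfrsf1α-/- and 4.80 and 4.92 in untreated Tnfrsf1β-/-. Prc1 and Nusap1, which bundle spindle microtubules, differed in WT by -0.97 and -1.06, calls lost in some alternative analyses.

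Ube2c and Espl1, of the anaphase genes, had the widest ranges of group means among the 49. Ube2c, the ubiquitin-conjugating enzyme of the anaphase-promoting complex, was the highest of the 49 in WT, at 13.23 and 13.05, and stayed at 11.90 and 12.27 in treated WT. It was at 4.39 and 4.50 in untreated libraries labelled Tnfrsf1α-/- and 4.56 and 4.57 in untreated Tnfrsf1β-/-. With TNFα these rose to 10.21 and 10.56, still below both WT groups, and to 12.38 and 12.63, which lay between untreated and treated WT. Espl1 (separase), the protease that cuts cohesin, followed the same order, with 11.79 and 11.54 in WT, 10.42 and 10.23 in treated WT, 3.01 and 3.06 before and 9.35 and 9.03 after treatment under the Tnfrsf1α-/- label, and 3.88 and 3.87 before and 10.89 and 10.81 after in Tnfrsf1β-/-. In WT both fell with TNFα, Ube2c by 1.05 and Espl1 by 1.34. Cdc20, the activator of the anaphase-promoting complex, instead followed cyclin B1, with 6.47 and 6.25 in WT and 11.61 and 12.26 in treated WT, and it rose by 5.29 in the libraries labelled Tnfrsf1α-/-. Pttg1 (securin), the inhibitor of separase, was not called with TNFα in any genotype.

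Of the genes of chromosome structure outside condensin, Top2a, the topoisomerase that untangles sister chromatids, had the highest mean of the 49. It was at 11.90 and 12.18 in WT and 13.98 and 13.36 in treated WT. Under the Tnfrsf1α-/- label it was at 6.51 and 6.28 untreated and 12.47 and 11.93 treated, and in Tnfrsf1β-/- at 6.58 and 6.65 untreated and 10.36 and 10.07 treated. It rose with TNFα in all 3 genotypes. Mki67, the proliferation marker that coats mitotic chromosomes, did not rise in any of them. Its levels were 3.84 and 3.58 in WT, 2.25 and 1.97 in treated WT, 5.48 and 5.35 untreated and 5.38 and 4.17 treated under the Tnfrsf1α-/- label, and 6.02 and 6.04 untreated and 4.14 and 3.85 treated in Tnfrsf1β-/-.

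Foxm1, the transcription factor of many G2 and M phase genes, was itself among the steep rises. It was at 4.20 and 3.44 in WT and 10.32 and 10.53 in treated WT, and at 4.29 and 4.39 against 10.63 and 10.48 in the libraries labelled Tnfrsf1α-/-. In Tnfrsf1β-/- it was at 4.89 and 4.88 untreated and 3.95 and 3.29 treated. Other regulators of cell cycle genes (the DREAM complex, E2F and MYB factors) were taken from a list of 20. In WT 7 were called higher and 1 lower, led by E2f1 at 7.03 and Mybl2, which encodes B-MYB, at 7.02. In libraries with the Tnfrsf1α-/- label 4 were higher and none lower by limma (1 at an unadjusted p under 0.05), led by Mybl1 at 9.16, E2f1 at 7.88 and Mybl2 at 6.29. In Tnfrsf1β-/- 2 were higher and 12 lower, with Mybl1 at 5.23 and E2f3 at -2.15.

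The counts of this list and of those that follow are to be read against the shares of all genes: 31.9% higher and 15.3% lower in WT, 9.81% and 7.5% under the Tnfrsf1α-/- label, and 17.6% and 42.9% in Tnfrsf1β-/-.

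Mitotic genes outside the 49 were also divided in direction. Of 43 others in the table, 8 were higher and 18 lower with TNFα in WT, with a median of -0.67, and Aspm, a spindle pole protein, rose by 7.60. In libraries with the Tnfrsf1α-/- label 12 were higher and 1 lower, with Kif14, a kinesin of cytokinesis, at 6.95. In Tnfrsf1β-/- 14 were higher and 20 lower, led by Trip13, a checkpoint ATPase, at 8.11 and Zwint, a kinetochore protein, at 7.31. Of 21 subunits of the anaphase-promoting complex and genes of cohesin, 2 were higher and 3 lower in WT, none higher by limma (2 at an unadjusted p under 0.05) and 3 lower in the libraries labelled Tnfrsf1α-/-, and 3 higher and 13 lower in Tnfrsf1β-/-. Their share called was thus 23.8% in WT and 76.2% in Tnfrsf1β-/-, where their median was -1.94. In WT the largest of these differences was Anapc7 at 1.44, and in Tnfrsf1β-/- it was Nipbl, the cohesin loader, at -2.91.

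Genes of DNA replication, a list of 25, also held steep rises. In WT 9 were higher and 4 lower, with 6 above 4 (24%), led by Fen1, which processes Okazaki fragments, at 7.19 and Tyms, thymidylate synthase, at 7.11. Under the Tnfrsf1α-/- label 15 were higher and none lower by limma (also 0 at an unadjusted p under 0.05), with 7 above 4 (28%). In Tnfrsf1β-/- 6 were higher and 5 lower, with Rrm1, a subunit of ribonucleotide reductase, at 6.4.

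Without TNFα, the knockout libraries differed from WT in both directions. The 2 comparisons share the untreated WT libraries with each other and with the test of TNFα in WT, and each shares its knockout libraries with the test of TNFα in that genotype. In the libraries labelled Tnfrsf1α-/-, 29 of 49 were called (59.2%, against 53.7% of all genes), with 14 higher (28.6%, against 36.7%) and 15 lower (30.6%, against 17%), and a median of 0.22 beside 0.48 over all genes. In Tnfrsf1β-/-, 30 were called (61.2%, against 54.4%), with 20 higher (40.8%, against 36.9%) and 10 lower (20.4%, against 17.5%), and a median of 0.54 beside 0.47. With median-ratio scaling the splits were 10 higher and 22 lower, and 15 higher and 16 lower. Without replicate 1 of the untreated libraries labelled Tnfrsf1α-/- 18 were called (35.2% of all genes were), and without replicate 2 of untreated Tnfrsf1β-/- 19 were, 11 higher and 8 lower (35.4% of all genes).

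The largest differences from untreated WT were falls. In each genotype 6 of the 49 were more than 4 lower (12.2%, against 1.4% and 1.45% of all genes): Cenpe, Kif20a, Ect2, Ube2c, Espl1 and Top2a. In the libraries labelled Tnfrsf1α-/- the largest were Ube2c at -8.69 (SE 0.20, adjusted p = 1.75e-08), Espl1 at -8.63 (SE 0.18, adjusted p = 8.89e-09) and Kif20a at -5.84 (SE 0.18, adjusted p = 8.67e-08). In Tnfrsf1β-/- they were Ube2c at -8.57 (SE 0.20, adjusted p = 2.29e-08), Espl1 at -7.79 (SE 0.18, adjusted p = 1.85e-08) and Top2a at -5.42 (SE 0.27, adjusted p = 2.09e-06). None of the 49 was more than 2.63 higher than untreated WT in either genotype. Cenpf was higher by 2.39 (SE 0.28, adjusted p = 0.000415) and 2.63 (SE 0.28, adjusted p = 0.000282), and Kif11, the kinesin that separates spindle poles, by 2.18 (SE 0.42, adjusted p = 0.0029) and 2.21 (SE 0.42, adjusted p = 0.00274). Mki67 was higher by 2.32 in Tnfrsf1β-/- (SE 0.35, adjusted p = 0.00111). Smc4 was 2.27 higher in the libraries labelled Tnfrsf1α-/- (SE 0.58, adjusted p = 0.011), with an adjusted p of 0.0683 without WT replicate 2 and 0.0681 without replicate 1 of its own group.

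With TNFα, the libraries labelled Tnfrsf1α-/- and those of WT differed by less than 3 in each of the 49 genes. Of 49, 31 were called (63.3%, against 45.2% of all genes), with 15 higher (30.6%, against 22.7%) and 16 lower (32.7%, against 22.4%), and a median of -0.09 beside 0.08. The treated WT libraries are also part of the test of TNFα in WT. The lower genes were led by Cenpa at -2.78 (SE 0.30, adjusted p = 0.000144), Kif20a at -2.37 (SE 0.18, adjusted p = 1.24e-05) and Cdc25c at -1.86 (SE 0.19, adjusted p = 0.000108). The highest were Mki67, by 2.67 (SE 0.35, adjusted p = 0.00046), Hmmr, by 2.28 (SE 0.33, adjusted p = 0.000775), and Smc4, by 2.71 (SE 0.58, adjusted p = 0.00593), whose adjusted p was 0.108 when only the 2 groups were fitted. Foxm1, Ndc80, Spc24 and Ncapd2 were not called, with differences of 0.13, -0.07, -0.12 and -0.87.

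Treated Tnfrsf1β-/- libraries lay far below treated WT in a group of genes that included cyclins, Foxm1 and condensin subunits. Of 49, 29 were called against treated WT (59.2%, against 51% of all genes), with 6 higher (12.2%, against 14.7%) and 23 lower (46.9%, against 36.3%), and a median of -0.48 beside -0.41. With median-ratio scaling 20 were higher and 21 lower, and with quantile normalization 19 and 20. More than 4 lower were 13 genes (26.5%, against 4.76% of all genes), namely Ccna2, Ccnb1, Cdc25c, Plk1, Aurkb, Cdca8, Cenpa, Ndc80, Kif2c, Cdc20, Ncapd2, Ncaph and Foxm1. These treated WT libraries are the same as in the test of TNFα in WT, so the values are not independent of it. Just outside that limit was Cenpe at -3.79. The largest were Ncapd2 at -7.90 (SE 0.34, adjusted p = 1.49e-07), Kif2c at -7.34 (SE 0.29, adjusted p = 8.68e-08) and Foxm1 at -6.80 (SE 0.29, adjusted p = 1.29e-07). The higher genes included Mki67, by 1.88 (SE 0.35, adjusted p = 0.0025), and Cenpf, by 1.72 (SE 0.28, adjusted p = 0.00128). Smc4 was 2.17 higher (SE 0.58, adjusted p = 0.0143), with adjusted p-values of 0.0716 to 0.0778 when any of 3 libraries was left out, namely replicate 1 or 2 of treated WT or replicate 1 of treated Tnfrsf1β-/-. The summed hepatocyte markers and the median mesenchymal level given above separate treated WT from both treated knockout groups. The summed mesenchymal markers do not separate it from treated Tnfrsf1β-/-. The part of these markers in the differences was not tested.

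The response to TNFα itself was compared between genotypes as a difference of differences, with the same 4 WT libraries in both tests. Between the libraries labelled Tnfrsf1α-/- and WT, 19 genes were called (38.8%, against 34.8% of all genes), 10 with a higher response (20.4%, against 12.8%) and 9 with a lower one (18.4%, against 22%), and the median was 0.19 beside -0.44. Without replicate 1 of the treated libraries labelled Tnfrsf1α-/-, 29 were called, 16 higher and 13 lower, while 60.1% of all genes were. With median-ratio scaling 16 were higher and 7 lower, and with quantile normalization 14 and 6. Between Tnfrsf1β-/- and WT, 30 were called (61.2%, against 64.5%), 7 higher (14.3%, against 17.3%) and 23 lower (46.9%, against 47.3%), shares near those of all genes, and the median was -0.95 beside -1.11. With median-ratio scaling 16 were higher and 17 lower, and with quantile normalization 10 and 17.

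Ube2c and Espl1 had the largest gains in response in both genotypes. Espl1 responded by 7.5 more than in WT in the libraries labelled Tnfrsf1α-/- (SE 0.25, adjusted p = 7.07e-08) and by 8.32 more in Tnfrsf1β-/- (SE 0.25, adjusted p = 3.69e-08). Ube2c responded by 6.99 more (SE 0.29, adjusted p = 2.32e-07) and 9.0 more (SE 0.29, adjusted p = 4.97e-08). Their untreated levels in both knockouts lay 7.79 to 8.69 below WT, as given above, while the treated levels were within 1.70 of treated WT. Losses of response in Tnfrsf1β-/- were led by Ncapd2 at -9.13 (SE 0.48, adjusted p = 8.14e-07), Ndc80 at -8.11 (SE 0.36, adjusted p = 2.52e-07) and Kif2c at -8.02 (SE 0.41, adjusted p = 7.13e-07). In the libraries labelled Tnfrsf1α-/- they were smaller, with Ccna2 at -2.05 (SE 0.38, adjusted p = 0.00383), Cenpa at -2.0 (SE 0.43, adjusted p = 0.00836) and Cdc25c at -1.96 (SE 0.28, adjusted p = 0.000846). With quantile normalization the value of Cenpa was -0.55, with an adjusted p of 0.292.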

How the data were processed

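RNA was measured in 12 libraries, 2 in each of 6 groups, named from the sample titles. Total RNA was taken with Trizol and 1 ug went into Illumina TruSeq libraries, per the labels' protocols. The authors deposited 1 table of log2 values for FPKM, read here as log2(FPKM + 1) because no value is negative and the highest is 16.8. The pseudocount is not given in the sources used here, and summed FPKM values rest on that reading. Aligner, counter, genome build and read depth were not given in the sources used here, so no counting error can be stated. Of 22730 lines, 346 are blank in every column. The 49 genes' symbols each occur on 1 line.

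Genes with a mean of at least 1 FPKM (11860) were fitted with limma 3.58.1 in R 4.3.3, as 6 group means over all 12 libraries with a mean-variance trend, and p-values were adjusted by Benjamini-Hochberg within each of 9 contrasts at 0.05. The script was tested on simulated data. Values per library are given, in each role, for the gene with the highest mean, the gene with the widest range and genes that moved against most others. Fold changes with SE and adjusted p are given for at most 3 rises and 3 falls per contrast whose libraries did not overlap, and at most 3 called genes are named per further list. Genes and lists were chosen with earlier results of these data known. Alternatives were another pseudocount (0.1), a minimum of 5 FPKM or none, median-ratio scaling, quantile normalization, no trend, a replicate block, only the groups compared, and leaving out groups or single libraries. Python 3.11.15 with pandas 2.3.3 and matplotlib 3.10.9 was used for tables and figures.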

Additional observations from a re-analysis of the deposited data

Results flagged for a closer look

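The response to TNFα differed from that of WT, by limma's test of the difference itself, in 19 of the 49 genes under the Tnfrsf1α-/- label. In Tnfrsf1β-/- it differed in 30. These were 38.8% and 61.2%, against 34.8% and 64.5% of all genes. The 12 values below are the 3 largest in each direction for each genotype. Against WT, the response in the libraries labelled Tnfrsf1α-/- was higher for Espl1 (7.5), Ube2c (6.99) and Cenpe (4.34) and lower for Ccna2 (-2.05), Cenpa (-2.0) and Cdc25c (-1.96). In Tnfrsf1β-/- it was higher for Ube2c (9.0), Espl1 (8.32) and Kif20a (4.36) and lower for Ncapd2 (-9.13), Ndc80 (-8.11) and Kif2c (-8.02). All are log2 differences, and each rests on 2 libraries per group.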

How the results depend on the processing

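Leaving out 1 library at a time moved the number of genes called to 25 to 40 for TNFα in WT, 21 to 38 in the libraries labelled Tnfrsf1α-/- and 24 to 39 in Tnfrsf1β-/-. It was 18 to 34 and 19 to 34 for the untreated knockouts against WT, 25 to 35 and 25 to 37 for the treated ones, and 15 to 29 and 23 to 34 for the differences of response. The lowest count for untreated libraries labelled Tnfrsf1α-/- came without their replicate 1, that for untreated Tnfrsf1β-/- without its replicate 2, and the counts of 38 and 29 came without replicate 1 of the treated libraries labelled Tnfrsf1α-/-. A group left with 1 library was assumed to vary like the others. Under the other alternatives each of the 9 counts was within 1.5 times the reported one, while median-ratio and quantile scaling changed the splits given beside the counts. Replicate numbers are not stated to pair libraries, and the data gave no uniform pairing: over 15 pairs of groups, deviations of same-numbered libraries correlated at -0.169 to 0.244, with 9 above 0.1. With the replicate number as a block, 36, 25 and 32 genes were called for TNFα in the 3 genotypes, in the order above. Of 2038 values of 97 named fold changes under the alternatives, 1990 kept their direction and call, 48 lost the call, and none reversed. Those fold changes were chosen among the largest called ones and do not stand for all calls. Among all called genes of the 49, 3 calls reversed direction under some alternative. These were Cdk1 with TNFα under the Tnfrsf1α-/- label, Cdc25c with TNFα in Tnfrsf1β-/-, and Kif4a in the response of Tnfrsf1β-/- against WT. With TNFα in Tnfrsf1β-/-, 9 of 10 rises and 14 of 23 falls held under both median-ratio and quantile scaling. Depth is unknown, and 2 libraries per group limit every statement.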
